A study of Drosophila melanogaster with 2 samples.

Results

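The cells described here are those of the first of 2 single-cell sequencing experiments that carried neuroblast transcripts but also 10% to under 20% of their unique molecular identifiers (UMIs, each counted as 1 captured RNA molecule) on genes of the mitochondrial genome, whose symbols begin with mt:. A cell entered if it had at least 1 UMI of dpn, at least 1 UMI of mira and at least 2000 UMIs in all. Of the 6548 barcodes of experiment 1, 2403 met these limits: 1762 had a mitochondrial share of 10% to under 20% and are called high-mt cells below, 615 had a share under 10% and are called low-mt cells, and 26 had 20% or more. The series holds 11891 barcodes over both experiments, and in experiment 2 the same limits gave 55 high-mt cells, 2065 low-mt cells and 84 cells at 20% or more. The groups were chosen by the measured mitochondrial share, dpn and mira, so these values are given as a description only.

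Both experiments used untreated Drosophila melanogaster larvae that carried E(spl)mgammaGFP together with SoxNGal4 and UAS-RedStinger over the balancer TM6B and were raised at 25 °C to the wandering stage of the third instar. The brains of 120 larvae were pooled in each experiment, dissociated and sorted for cells with both GFP and RFP, so a library is a pool of animals and the high-mt and low-mt cells of an experiment come from the same larvae and the same sort. GFP marks neuroblasts through the E(spl)mgamma reporter, and SoxNGal4 drives the red protein in cells of the medulla, their progeny included. A barcode is a droplet that the authors' software called as a cell. The files held 42618478 UMIs for experiment 1 and 116712060 UMIs for experiment 2, and 9 barcode sequences occurred in both, 1 of them a high-mt cell of experiment 1.

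Neuroblasts of the medulla, the largest neuropil of the fly's optic lobe, divide asymmetrically to renew themselves and to give off ganglion mother cells, whose progeny become neurons or glia. As they age they express a series of temporal transcription factors, here followed through Homothorax (hth), Eyeless (ey), Sloppy-paired 1 (slp1), Dichaete (D), BarH1 (B-H1), Tailless (tll) and Glial cells missing (gcm), and a neuroblast is known to hold high levels of the factor of its own age and little of distant ones. The share of UMIs on mitochondrial transcripts is commonly used as a limit on cell quality in single-cell data, and the study set aside cells at 10% or more. With a dpn UMI required, this limit left 777 barcodes of experiment 1 and 2302 of experiment 2, and 3065 barcodes lay at or above it, 2836 of them in experiment 1. The paper also tried the upper bound of the high-mt range as its limit. Most cells with a high mitochondrial share then clustered apart from the rest. The paper proposes that confounding factors may have driven this clustering, and it kept the limit of 10% for that reason.

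**Figure D1:**
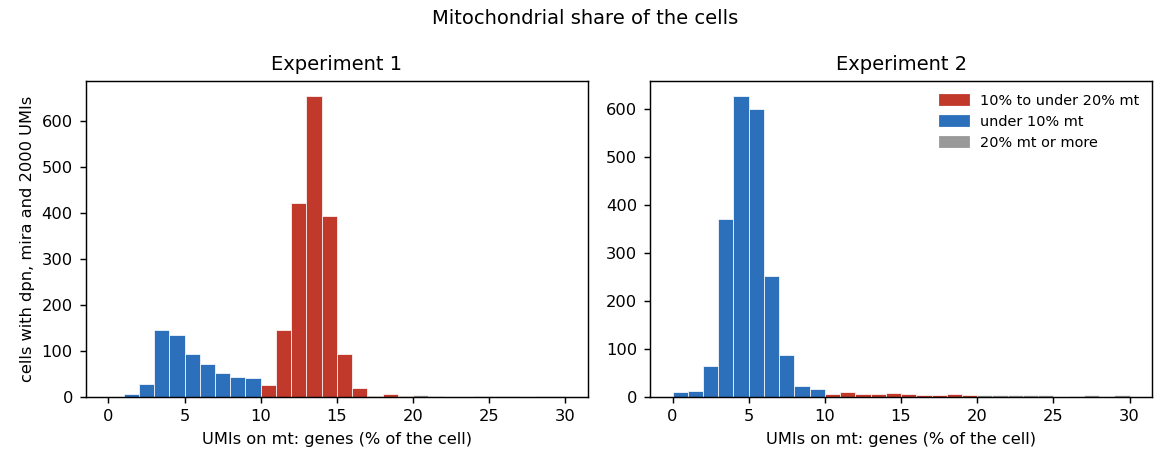
Number of cells with dpn, mira and 2000 UMIs (vertical axis) by the share of their UMIs on mt: genes in percent (horizontal axis, bins of 1 percentage point, shown up to 30%), for experiments 1 and 2. Experiment 1 has a narrow peak of 654 cells at 13% to 14% beside a broad group under 10%, and experiment 2 has 55 cells from 10% to under 20%.

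The high-mt cells of experiment 1 were a narrow group in both mitochondrial share and depth. Their share had a median of 13.5%, with the middle 50% of cells between 12.7% and 14.1%, and 1468 of the 1762 lay from 12% to under 15%. They held a median of 9476.5 UMIs, with the 5th and 95th percentiles at 5699 and 15048, whereas the low-mt cells held a median of 15157 UMIs with percentiles of 2547 and 95257. The ratio of the 75th to the 25th percentile of UMIs was 1.59 in high-mt cells and 6.23 in low-mt cells. A median of 2014.5 genes was detected in a high-mt cell and of 2690 in a low-mt cell. Just inside the limit, from 10% to under 11%, lay 26 cells with a median of 5769.5 UMIs, and just outside it, from 9% to under 10%, lay 40 cells with a median of 3248 UMIs.

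Most barcodes of this mitochondrial range in experiment 1 carried both neuroblast transcripts, given here as a description, since the rule used them. Of 2065 barcodes in experiment 1 with at least 2000 UMIs and a share of 10% to under 20%, 1842 had a dpn UMI, 1935 had a mira UMI and 1762, or 85.3%, had both, against 615 of 991 barcodes, or 62.1%, under 10%. The 303 barcodes of the range that lacked dpn or mira held fewer UMIs, with a median of 5814. When UMIs outside the mitochondrial genes were summed, 5.97% of the UMIs of these 303 barcodes would have to move to other genes to give the composition of the high-mt cells, whereas the low-mt cells and the 376 barcodes without both transcripts at under 10% differed by 24.0%. In experiment 2, 55 of the 117 barcodes of the range, or 47.0%, had both.

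The mitochondrial transcripts themselves are described first, since they define the cells. The annotation holds 38 mt: genes, of which the 22 tRNA genes had no UMI in either group, and 15 genes had at least 100 UMIs. All 15 were higher in high-mt than in low-mt cells relative to the other UMIs, by 1.47-fold (mt:srRNA) to 4.68-fold (mt:lrRNA) with a median of 2.67-fold. mt:lrRNA, the large ribosomal RNA of the mitochondrion, stood at 77201 UMIs per 1000000 other UMIs in high-mt cells and 16487 in low-mt cells and made up 49.9% of the mitochondrial UMIs in high-mt cells and 36.1% in low-mt cells. The small ribosomal RNA mt:srRNA had the lowest ratio of the 15, 1829 in high-mt cells against 1247 in low-mt cells. Of the messengers, mt:CoIII, a subunit of cytochrome oxidase, was at 17836 in high-mt cells and 6353 in low-mt cells. In experiment 2 the ratios ran from 2.25-fold to 4.003-fold, and there mt:srRNA was the highest.

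All further levels leave the mt: genes out of the totals. A level is the sum of a gene's UMIs over the cells of a group per 1000000 UMIs of the group outside the mt: genes (CPM), and where cells are compared with each other, each was thinned once at random to 2000 UMIs outside the mt: genes, which 1743 high-mt and 606 low-mt cells of experiment 1 could supply. Experiment 1 is 1 library, so its differences between groups have no replicate check and no test. Intervals given for it are exact Poisson or Clopper-Pearson 95% intervals that cover counting error only.

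The high-mt cells differed less from each other than the low-mt cells did. For each gene, the variance of its UMIs over cells was divided by the variance that cells drawing 2000 UMIs from a common pool of RNA would have, a ratio called dispersion here, which is 1 where cells differ by sampling alone. Over the 2026 genes with a mean of at least 0.1 UMI in both groups, the median dispersion was 1.02 in high-mt cells and 1.07 in low-mt cells. Dispersion was above 1.2 for 46 genes, 2.27% of the 2026, in high-mt cells and for 380 genes, 18.8%, in low-mt cells, and above 1.5 for 11 genes in high-mt cells and 125 in low-mt cells. In the 1458 thinned cells from 12% to under 15% the median was 1.01 and 20 genes were above 1.2. With a gap at the limit, 12% to under 20% against under 8%, 1.33% of the genes were above 1.2 in high-mt cells and 17.4% in low-mt cells. The contrast was also present at like depths: the 157 low-mt cells whose depth fell within the 5th to 95th percentile of the high-mt cells had a median of 1.07 and 25.2% of genes above 1.2, a share that rests on few cells, and at 4000 UMIs a cell 1.96% of 3273 genes were above 1.2 in high-mt cells and 22.1% in low-mt cells. The low-mt cells of experiment 2, 2065 in number, had a median of 1.03 with 9.42% of 2112 genes above 1.2, which is again more genes than in the high-mt cells of experiment 1. The 53 thinned high-mt cells of experiment 2 are too few for a count of such genes, since sampling alone spreads a value by 0.196 at that number.

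**Figure D2:**
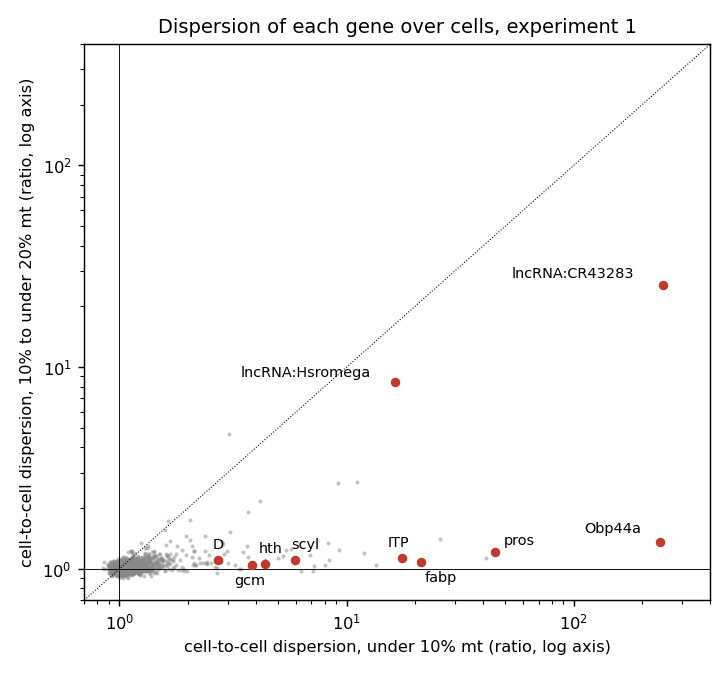
Dispersion over cells thinned to 2000 UMIs, 1 point per gene (2026 genes, and in red 10 genes named in the text), in high-mt cells (vertical, log axis) against low-mt cells (horizontal, log axis) of experiment 1. Solid lines mark a dispersion of 1 and the dotted line equal values. Genes such as Obp44a, pros, fabp and ITP lie far to the right and near 1 on the vertical axis, whereas lncRNA:Hsromega and lncRNA:CR43283 are high on both.

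Most of the genes that varied most among the low-mt cells of experiment 2 varied little among the high-mt cells of experiment 1. The 50 most variable genes of the low-mt cells of experiment 2 had a median dispersion of 1.11 in the high-mt cells of experiment 1. In the low-mt cells of experiment 1 their median was 2.94, and 49 of the 50 were lower in high-mt cells. Choosing genes by their spread among low-mt cells favours higher values in low-mt cells, so the count of 49 is a description only. Over all 2026 genes, dispersion was above 1.2 for 2.27% in high-mt cells and 18.8% in low-mt cells of experiment 1. For dap, the inhibitor of cyclin E and Cdk2, dispersion was 0.98 in high-mt cells and 6.29 in low-mt cells. For scyl, a stress-inducible regulator of growth through TOR, it was 1.11 in high-mt cells and 5.93 in low-mt cells. Among temporal factors, hth had 1.06 in high-mt cells and 4.40 in low-mt cells, gcm 1.05 and 3.84, and D 1.103 and 2.72, each with the high-mt cells first. Exceptions included noncoding and ribosomal precursor RNAs: lncRNA:CR43283 had a dispersion of 25.6 in high-mt cells and 247 in low-mt cells, lncRNA:Hsromega, a nuclear RNA induced by heat, 8.42 in high-mt cells and 16.3 in low-mt cells, and pre-rRNA:CR45847 4.64 in high-mt cells and 3.04 in low-mt cells. The odorant-binding protein gene Obp44a shows the pattern in single cells. At 2000 UMIs it was present in 97.6% of high-mt cells (96.8% to 98.3%), with a 5th percentile of 2, a median of 6, a 95th percentile of 11 and a highest value of 30 UMIs, and in 21.8% of low-mt cells (18.6% to 25.3%), with a median of 0, a 95th percentile of 2.75 and a highest value of 460 UMIs.

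As sums over cells, the high-mt cells were closer in composition to each other than to the low-mt cells. The cells from 12% to under 15% differed from those at 10% to under 12% by 5.16% of UMIs placed on other genes and from those at 15% to under 20% by 3.31%. They differed from the low-mt cells under 5% by 14.3%, from those at 5% to under 8% by 19.2% and from those at 8% to under 10% by 19.5%. The difference between the low-mt cells of the 2 experiments was 7.52%. Set against all other barcodes of experiment 1, the high-mt cells as a whole differed by 14.3%, the same as from all low-mt cells. They differed from the 3409 barcodes of experiment 1 under 2000 UMIs by 17.7% and from its barcodes without a dpn UMI by 19.7%. The low-mt cells lay closer to both, at 12.1% and 14.4%. Droplets that the authors' software did not call as cells were not analysed here.

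Neuroblast genes were present in high-mt cells, mostly at lower levels than in low-mt cells. Of 15 such genes, 14 reached 20 CPM in at least 1 group, the floor for a gene to count as measured, and 0 of these were at least 1.5-fold higher and 9 at least 1.5-fold lower in high-mt cells, where 3.68% of all measured genes were higher and 16.6% lower. Their summed level was 6580 CPM in high-mt cells and 10530 CPM in low-mt cells. The list holds dpn and mira, which the rule used. Without them, 0 of 12 measured genes were higher and 8 lower, and the sum was 5662 CPM in high-mt cells and 9354 CPM in low-mt cells. The transcription factor gene dpn stood at 414 CPM in high-mt cells and 381 CPM in low-mt cells, whereas mira, whose product carries cell fate determinants to the daughter cell, stood at 504 CPM in high-mt cells and 795 CPM in low-mt cells. E(spl)mgamma-HLH, the Notch target behind the GFP of the sort, was at 650 CPM in high-mt cells and 719 CPM in low-mt cells. CycE, which drives entry into S phase, was at 522 CPM (510 to 534) in high-mt cells and 1277 CPM (1259 to 1295) in low-mt cells, a log2 ratio of -1.29. klu, a zinc finger gene of neuroblasts, was at 447 CPM in high-mt cells and 790 CPM in low-mt cells. In experiment 2 the list went the other way, as given further on. High-mt cells varied little from each other and, as described below, held factors of distant ages together about as often as the separate shares give. They are therefore named by their mitochondrial share and are not read as neuroblasts of particular ages. What these cells are was not tested.

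At 2000 UMIs a cell, the shares of cells with a UMI of a temporal factor differed by under 6 percentage points between the groups. The differences changed with the depth of thinning and the cells that reached it. At this depth, hth was detected in 18.1% of high-mt cells and 17.7% of low-mt cells, a difference of 0.473 percentage points (Newcombe 95% interval -3.20 to 3.87). ey was detected in 15.3% of high-mt cells and 14.2% of low-mt cells (difference 1.13, -2.28 to 4.23), and slp1 in 31.8% and 28.1% in that order (difference 3.79, -0.494 to 7.88). D was found in 30.6% of high-mt cells and 25.1% of low-mt cells, a difference of 5.55 points (1.38 to 9.51) that was 1.87 points in a second random draw and 2.39 points (-1.74 to 6.30) with mt: genes counted among the 2000 UMIs, so it is not read as a difference at this depth. B-H1 was found in 4.82% of high-mt cells and 10.2% of low-mt cells, a difference of -5.41 points (-8.23 to -2.98) that was -4.72 points in the second draw. tll was found in 2.24% of high-mt cells and 3.14% of low-mt cells (difference -0.898, -2.71 to 0.482), a difference that was -2.24 points in the second draw and -2.16 points (-3.995 to -0.783) with mt: genes counted. gcm was found in 7.57% of high-mt cells and 9.08% of low-mt cells (difference -1.50, -4.30 to 0.934), and its difference was -3.66 points in the second draw and -5.17 points (-8.04 to -2.67) with mt: genes counted. The intervals that include 0 do not show that the shares are alike, and the differences moved between draws. Only 1707 high-mt and 507 low-mt cells could be thinned to 4000 UMIs, so the set of cells changed along with the depth. At 4000 UMIs a cell the high-mt cells had the larger share for hth, by 11.7 points (7.27 to 15.8), ey, by 6.93 points (2.62 to 10.9), slp1, by 9.80 points (4.85 to 14.7), and D, by 17.3 points (12.5 to 22.0). At that depth the difference was -7.82 points for B-H1 (-11.7 to -4.31), -4.12 points for tll (-6.88 to -1.87) and 0.648 points for gcm (-2.95 to 3.85). In 499 barcodes of experiment 1 that had no dpn UMI and could be thinned, with a median depth of 5765 UMIs, hth was found in 30.5%, which is above both groups, so its share is not read as expression of their own. These barcodes are not a cell type known to lack the factors, since many medulla neurons also express hth. There ey was found in 13.6%, within counting error of both groups, slp1 in 23.2%, D in 20.4%, B-H1 in 2.81%, tll in 1.40% and gcm in 4.41%.

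The high-mt cells differed from the low-mt cells in cells with several UMIs of a factor. gcm reached at least 3 UMIs in 1 of 1743 high-mt cells, or 0.0574%, and in 3.80% of low-mt cells. D did so in 1.09% of high-mt cells and 6.93% of low-mt cells, hth in 0.287% of high-mt cells and 2.31% of low-mt cells, and slp1 in 1.09% of high-mt cells and 1.98% of low-mt cells. The highest hth value at 2000 UMIs was 3 in high-mt cells and 17 in low-mt cells. Before thinning, with the high-mt cells the shallower ones by median, hth was detected in 54.8% of high-mt cells and 34.8% of low-mt cells, D in 74.2% of high-mt cells and 48.9% of low-mt cells, and gcm in 25.9% of high-mt cells and 16.3% of low-mt cells, whereas the highest hth count was 8 in high-mt cells and 243 in low-mt cells. Before thinning, hth, D and gcm were thus found in a larger share of high-mt cells, whereas their highest counts were in low-mt cells. These unthinned shares also carry the difference in depth.

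**Figure D3:**
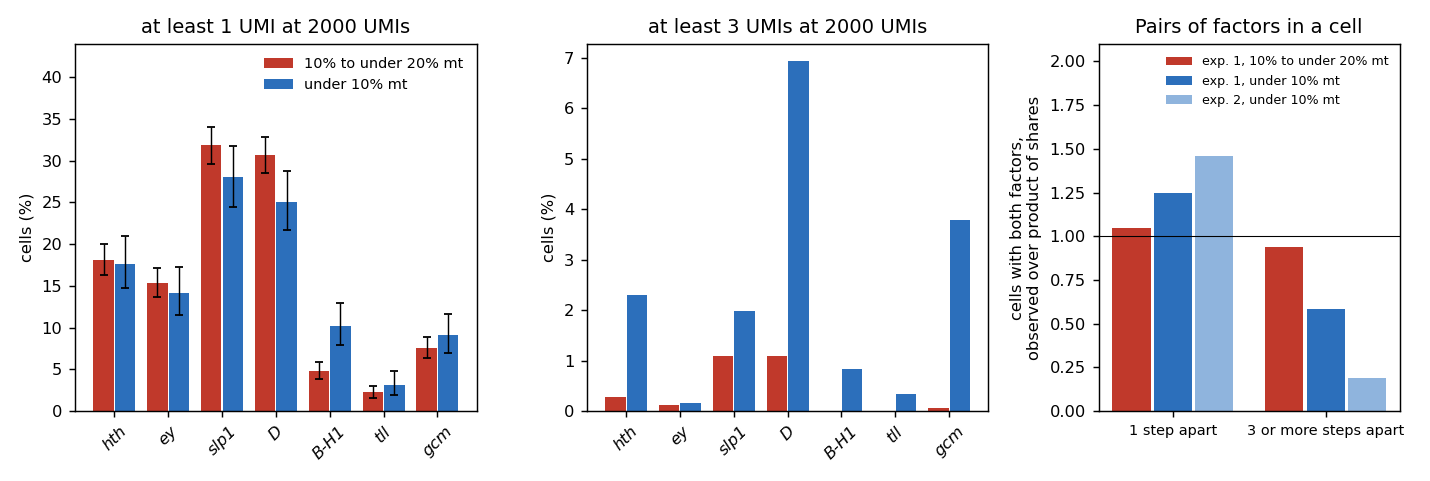
Left, percent of cells of experiment 1 with at least 1 UMI of each temporal factor at 2000 UMIs, with exact 95% intervals; middle, percent with at least 3 UMIs; right, number of cells with UMIs of both factors of a pair divided by the number given by the product of the 2 shares, summed over pairs. High-mt cells are in red and low-mt cells in blue; high-mt cells lie near 1 for pairs 3 or more steps apart, at 0.939, and low-mt cells at 0.583 in experiment 1 and 0.188 in experiment 2.

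Factors of distant ages were found together in high-mt cells about as often as their separate shares give. For the 10 pairs of factors that stand 3 or more steps apart in the order listed above, such as hth with gcm, high-mt cells held both in 260 cases, against 277 from the product of the shares, a ratio of 0.939. Low-mt cells of experiment 1 held both in 61 cases against 105, a ratio of 0.583, and low-mt cells of experiment 2 in 46 against 245, a ratio of 0.188. For the 6 neighbouring pairs the ratio was 1.05 in high-mt cells, 1.25 in low-mt cells of experiment 1 and 1.46 in low-mt cells of experiment 2. Single pairs show the same: slp1 and gcm occurred together in 42 high-mt cells, with 42.0 from the product of the shares, and in 3 low-mt cells, with 15.4. hth and gcm, the ends of the order, occurred together in 26 high-mt cells, with 23.9 from the product, and in 4 low-mt cells, with 9.71. An exception was hth with D, found together in 94 high-mt cells with 96.8 from the product and in 32 low-mt cells with 26.8. At 4000 UMIs a cell the distant pairs stood at 1.02 of the product of the shares in high-mt cells and 0.659 in low-mt cells. These pair counts, like the dispersion, the comparison of compositions and the classes of transcript length, were defined after the data had been seen and are descriptions of 1 library each.

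As summed levels, B-H1 was lower in high-mt cells under every weighting tried, whereas the ratios of hth, D and gcm depended on how cells were weighted. hth stood at 105 CPM in high-mt cells and 90.9 CPM in low-mt cells, ey at 81.8 CPM and 83.6 CPM, and slp1 at 188 CPM and 172 CPM, with the high-mt cells first. D was at 190 CPM in high-mt cells and 293 CPM in low-mt cells (log2 -0.62), gcm at 36.9 CPM in high-mt cells and 69.7 CPM in low-mt cells (-0.92), and B-H1 at 26.4 CPM in high-mt cells and 61.6 CPM in low-mt cells (-1.22). With low-mt cells weighted to the depths of the high-mt cells, the log2 ratio was -0.90 for hth, -0.03 for D and -3.23 for gcm. Without the cells richest in markers of other cell types it was 0.88 for hth and -0.44 for gcm, so hth passed 1.5-fold in both directions. Of 11 further temporal and associated genes, 0 were at least 1.5-fold higher and 7 at least 1.5-fold lower in high-mt cells: slp2, the partner of slp1, was at 154 CPM in high-mt cells and 340 CPM in low-mt cells, scro, the fly homologue of NKX2, at 289 CPM in high-mt cells and 556 CPM in low-mt cells, and dap at 61.8 CPM in high-mt cells and 150 CPM in low-mt cells.

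Over all genes, 4209 were measured in experiment 1, of which 155 were at least 1.5-fold higher in high-mt cells, or 3.68%, and 698 at least 1.5-fold lower, or 16.6%. The median log2 ratio of high-mt over low-mt cells was -0.13. When the mt: genes were kept in the totals the median was -0.28 and the counts became 88 higher and 1015 lower, so the split between directions depends on the scaling, and the ratios in the text are those without mt: genes. With low-mt cells weighted to the depths of the high-mt cells, the counts were 470 higher (10.8% of 4368 genes) and 1288 lower (29.5%), and with every cell thinned to 2000 UMIs they were 290 higher (6.70% of 4330) and 1140 lower (26.3%).

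Named here are the 12 genes with the largest ratios among those at 50 CPM or more and also above 1 in experiment 2. They included genes of odorant-binding, lipid-binding and metal-binding proteins. Genes below 1 in experiment 2 were left out, among them CG8369 (log2 3.91 in experiment 1 and -0.16 in experiment 2) and Arc1 (3.14 and -0.32). Obp44a, known in the larval brain from glia, was at 3035 CPM (3006 to 3063) in high-mt cells and 230 CPM (223 to 238) in low-mt cells, 13.2-fold higher, a log2 ratio of 3.72 that was 1.47 when every cell was thinned to 2000 UMIs and so weighed equally. MtnA, a metallothionein, was at 184 CPM in high-mt cells and 10.5 CPM in low-mt cells, Npc2a, a sterol-binding protein, at 74.3 CPM in high-mt cells and 6.87 CPM in low-mt cells, and Obp99a, another odorant-binding protein, at 297 CPM in high-mt cells and 47.6 CPM in low-mt cells. fabp, a fatty acid binding protein, was at 1198 CPM in high-mt cells and 341 CPM in low-mt cells and had a UMI in 90.1% of high-mt cells and 39.6% of low-mt cells at 2000 UMIs. ITP, which encodes the ion transport neuropeptide, was at 470 CPM in high-mt cells and 97.3 CPM in low-mt cells, a log2 ratio of 2.27 that dropped to 0.29 with low-mt cells weighted to the depths of the high-mt cells. CG9686, Ggamma30A, which encodes a G protein subunit, eEF1alpha2, Sirup, lncRNA:CR33938 and CG14989 completed the 12, with log2 ratios of 1.07 to 3.49. Under that weighting CG14989 turned to -0.39 and eEF1alpha2 stood at 0.14. With every cell thinned to 2000 UMIs, the log2 ratio dropped to 1.86 for MtnA, 1.49 for Npc2a, 1.22 for CG9686, 1.88 for Obp99a and 1.01 for ITP, against 4.14, 3.44, 3.49, 2.64 and 2.27 from the sums.

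As summed levels, 11 of these 12 genes stood higher still in barcodes without dpn. The 12 were chosen for high ratios, and the share of all genes that stood higher in these barcodes was not counted. Of these 2935 barcodes, 2356 held under 2000 UMIs. In barcodes of experiment 1 with no dpn UMI, Obp44a stood at 9882 CPM, MtnA at 452 CPM, Obp99a at 836 CPM, fabp at 2823 CPM and ITP at 10854 CPM, each above the level in high-mt cells, whereas lncRNA:CR33938 was at 3350 CPM there against 5315 CPM in high-mt cells and 2495 CPM in low-mt cells. In the 499 barcodes without dpn that could be thinned to 2000 UMIs, Obp44a was found in 53.5% and ITP in 35.3%. These shares lie below the 97.6% and 58.3% of high-mt cells. The part of RNA from other cells in the ratios of the 12 genes was not tested.

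Markers of other cell types moved in different directions. Of 10 neuronal genes, 6 were measured, with 4 at least 1.5-fold higher and 1 lower in high-mt cells. The higher ones were present at low levels: VGlut, the vesicular glutamate transporter, was at 25.5 CPM in high-mt cells and 6.49 CPM in low-mt cells and nrv3 at 47.5 CPM in high-mt cells and 23.3 CPM in low-mt cells. elav, the RNA-binding protein widely used as a neuronal marker, was lower, at 542 CPM in high-mt cells and 1225 CPM in low-mt cells. At 2000 UMIs it was found in 63.7% of high-mt cells and 81.5% of low-mt cells, and in 76.7% of low-mt cells of experiment 2. The summed level of the 10 genes was 999 CPM in high-mt cells and 1638 CPM in low-mt cells. elav made up most of both sums, so they are not read as a level of neuronal RNA. The median log2 ratio of the 6 was 0.79 but -0.58 with low-mt cells weighted to the depths of high-mt cells and -0.17 after thinning. Of 10 glial genes, 3 were measured, none past 1.5-fold, and the other 7 had higher levels in high-mt than in low-mt cells, at 0.679 to 10.9 CPM in high-mt cells and 0.0630 to 0.882 CPM in low-mt cells. The glial regulator repo had a UMI at 2000 UMIs in 8 of 1743 high-mt cells (0.459%) and 1 of 606 low-mt cells (0.165%), and alrm, an astrocyte gene, in 2.52% of high-mt cells and 0.165% of low-mt cells. The 8 haemocyte genes summed to 1.49 CPM in high-mt cells and 1.01 CPM in low-mt cells, and Hml, He, NimC1 and vkg had no UMI in either. Of 7 neuroepithelial genes, 5 were measured, with 1 higher and 2 lower in high-mt cells. Their part in the other results was not tested.

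For nuclear genes whose products work in mitochondria, the number past 1.5-fold depended on how cells were weighted. Of 87 nuclear genes of oxidative phosphorylation, 68 were measured, 1 was at least 1.5-fold higher (ATPsynE, a subunit of the ATP synthase, at 693 CPM in high-mt cells and 460 CPM in low-mt cells), 0 were lower, and the median log2 ratio was 0.20. Of 73 mitochondrial ribosomal protein genes, 70 were measured, 1 was higher (mRpL44, log2 1.02) and 1 lower (mRpS5, log2 -1.86), with a median of 0.23. Of 21 genes of mitochondrial import, quality control and dynamics, 2 were higher, Phb2 and l(2)37Cc, both prohibitins, and 1 lower, Opa1, which fuses inner membranes, with a median of -0.05. After thinning, 17 of 68 oxidative phosphorylation genes were higher (median 0.42) and 20 of 70 mitochondrial ribosomal protein genes (median 0.41), and with depth weighting 33 of 68 (median 0.57) and 26 of 70 (median 0.53) were, with 0 and 1 lower in both settings. With mt: genes in the totals, 0 and 1 were higher. Over all measured genes, 6.70% were higher after thinning, 10.8% with depth weighting, 2.17% with mt: genes in the totals and 3.68% in the main setting. In experiment 2 these 3 medians were -0.16, -0.31 and -0.20.

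Cytosolic ribosomal protein genes were higher as a whole. All 82 measured of 87 had ratios above 1, 12 of them at least 1.5-fold, with a median log2 ratio of 0.37, and the list took 389477 CPM in high-mt cells and 289804 CPM in low-mt cells. RpL36A was at 9224 CPM in high-mt cells and 4449 CPM in low-mt cells and RpLP1 at 11523 CPM in high-mt cells and 6048 CPM in low-mt cells. RpL36A had 4 to 35 UMIs per cell at 2000 UMIs, with a median of 18, in high-mt cells and 1 to 25 with a median of 9 in low-mt cells. In experiment 2, 73 of the 82 were above 1 and 0 were past 1.5-fold. In experiment 1, 20 of the 82 were at least 1.5-fold higher after thinning, 39 with depth weighting (median 0.57) and 4 with mt: genes in the totals. Of 11 measured glycolytic genes, 3 were higher in high-mt cells of experiment 1, among them Ald, the aldolase, at 52.6 CPM in high-mt cells and 23.4 CPM in low-mt cells, and Gapdh1 at 114 CPM in high-mt cells and 65.0 CPM in low-mt cells, and the median log2 ratio was 0.39 in experiment 1 and -0.29 in experiment 2. After thinning, 6 of 11 were higher, and 7 of 10 with depth weighting. The ribosomal and glycolytic counts stand beside 6.70% of all measured genes higher after thinning and 10.8% with depth weighting.

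Of the stress and death genes in experiment 1, those of the integrated and endoplasmic reticulum stress responses were most often lower, and the few higher genes depended on the weighting. Of 18 measured heat shock genes, 2 were higher, the small heat shock genes Hsp67Bc and Hsp67Ba, and 3 lower, Hsp83, the fly Hsp90, at 2558 CPM in high-mt cells and 4547 CPM in low-mt cells, and the Hsp70 copies Hsp70Ab and Hsp70Bb, a share near the 16.6% of all measured genes that were lower. With depth weighting Hsp67Bc stood at a log2 ratio of 0.50, and after thinning Hsp67Ba stood at 0.05. In experiment 2, Hsp67Bc had a log2 ratio of -1.63 and Hsp67Ba of -1.87. Reads can be split between the near-identical Hsp70 copies, so their single values are uncertain. Of 8 measured genes of the integrated and endoplasmic reticulum stress responses, 0 were higher and 4 lower, with scyl at 410 CPM in high-mt cells and 985 CPM in low-mt cells. In experiment 2, 0 of 8 were higher and 1 lower, with a median log2 ratio of 0.04. The list summed there to 2092 CPM in high-mt cells and 1797 CPM in low-mt cells. Of 6 measured cell death genes, 1 was higher, Dark, the adaptor of the apoptosome, at 26.8 CPM in high-mt cells and 17.0 CPM in low-mt cells, and 2 lower, Dcp-1 and grim. Of 11 measured redox genes 1 was higher, GstS1, and of 31 measured proteasome genes none was past 1.5-fold in either direction. After thinning Dark stood at 0.09 and GstS1 at 0.17. With depth weighting 6 of the 11 redox genes were higher, where 10.8% of all measured genes were.

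The counts of cell cycle genes stand beside 16.6% lower and 3.68% higher among all measured genes, and the S-phase counts are near these shares. Of 31 measured G2/M genes, 0 were higher and 10 lower, with a median log2 ratio of -0.33: glu, a condensin subunit, was at 140 CPM in high-mt cells and 333 CPM in low-mt cells and cmet, a centromere motor, at 48.1 CPM in high-mt cells and 108 CPM in low-mt cells. Of 27 measured S-phase genes, 1 was higher, DNApol-alpha50, the primase subunit, and 5 lower, CycE and Claspin among them, with a median of -0.07. In experiment 2, 2 G2/M genes were higher and 2 lower. The 12 genes with the smallest ratios were chosen among those also below 1 in experiment 2. CycE was left out by this, with a log2 ratio of -1.29 in experiment 1 and 0.24 in experiment 2. The 12 also held Caf1-180, of the chromatin assembly factor, at 132 CPM in high-mt cells and 317 CPM in low-mt cells. mxc, which organises the histone locus, was at 61.0 CPM in high-mt cells and 147 CPM in low-mt cells. sle was at 75.6 CPM in high-mt cells and 213 CPM in low-mt cells, and lgs, a coactivator of Wnt signalling, at 58.1 CPM in high-mt cells and 130 CPM in low-mt cells.

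**Figure D4:**
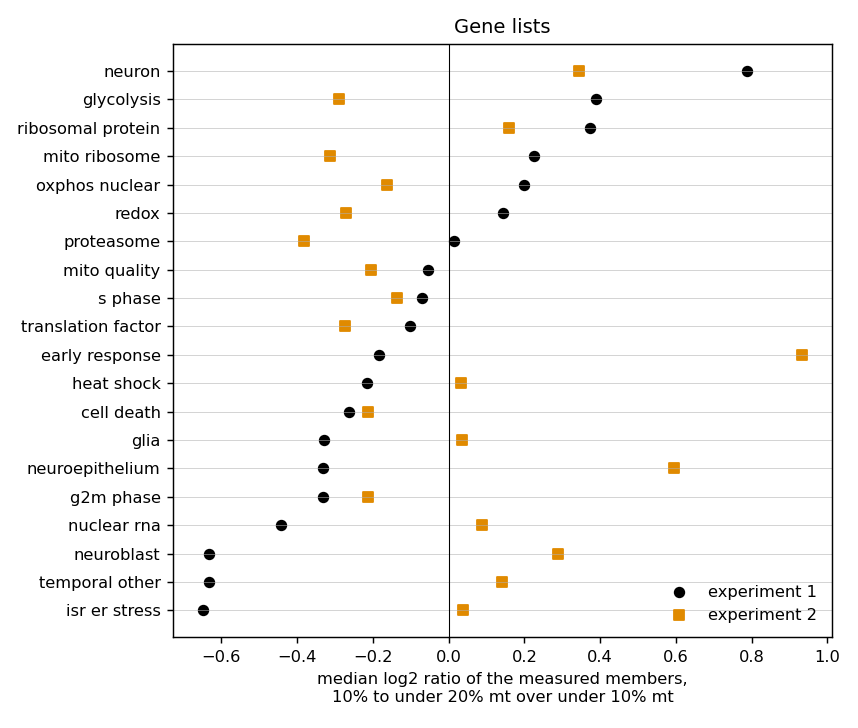
Median log2 ratio of the measured members of each gene list, high-mt over low-mt cells (horizontal axis), in experiment 1 (black circles) and experiment 2 (orange squares); lists with at least 2 measured members are shown. The neuroblast list lies at -0.63 in experiment 1 and 0.29 in experiment 2, and the ribosomal protein list at 0.37 and 0.16.

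The genes that were lower in high-mt cells were more often genes with long transcripts. Of the 4209 measured genes, 4172 had an annotated transcript length, and in 4 classes of about equal size, shortest to longest, the median log2 ratio was 0.10, -0.05, -0.24 and -0.52. In the longest class, 454 of 1043 genes were at least 1.5-fold lower and 27 higher, and in the shortest, 14 of 1041 were lower and 67 higher. Without the genes of the ribosomal and oxidative phosphorylation lists the 4 medians were 0.06, -0.06, -0.24 and -0.52. In experiment 2 the order ran the other way at the long end, with medians of -0.23, -0.29, -0.08 and 0.31, and 197 of 988 genes of the longest class were higher there. The part of transcript length in the differences between gene lists was not tested.

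Along the mitochondrial share, the shares of cells given here and the neuroblast sum changed at the limit more than within the high-mt range. The summed levels of Obp44a and ITP did not follow this. In experiment 1, Obp44a had a UMI at 2000 UMIs in 11.7% of cells under 5%, 29.6% at 5% to under 8%, 41.3% at 8% to under 10%, 88.7% at 10% to under 12%, 98.8% at 12% to under 15% and 95.7% at 15% to under 20%. fabp was found in 37.1%, 40.3%, 48.0%, 82.1%, 91.4% and 86.3% of the cells of these 6 bins. mira was found in 73.0%, 76.9%, 86.7%, 69.0%, 62.7% and 66.7%, and hth in 8.57%, 25.9%, 32.0%, 22.0%, 18.04% and 13.7%. As a summed level, Obp44a stood at 126, 341, 2552, 2707, 3088 and 2882 CPM in these bins, so its largest rise lay below the limit. ITP stood at 609 CPM at 8% to under 10% and at 478 CPM at 10% to under 12%. The neuroblast list summed to 10013 CPM, 12725 CPM and 11556 CPM in the 3 bins under the limit and to 7772 CPM, 6388 CPM and 7088 CPM in the 3 bins above it. The 26 cells at 20% or more, with a median of 6267 UMIs, did not continue the high-mt range: Obp44a was found in 20.8% of the 24 that could be thinned and the neuroblast list summed to 15724 CPM.

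**Figure D5:**
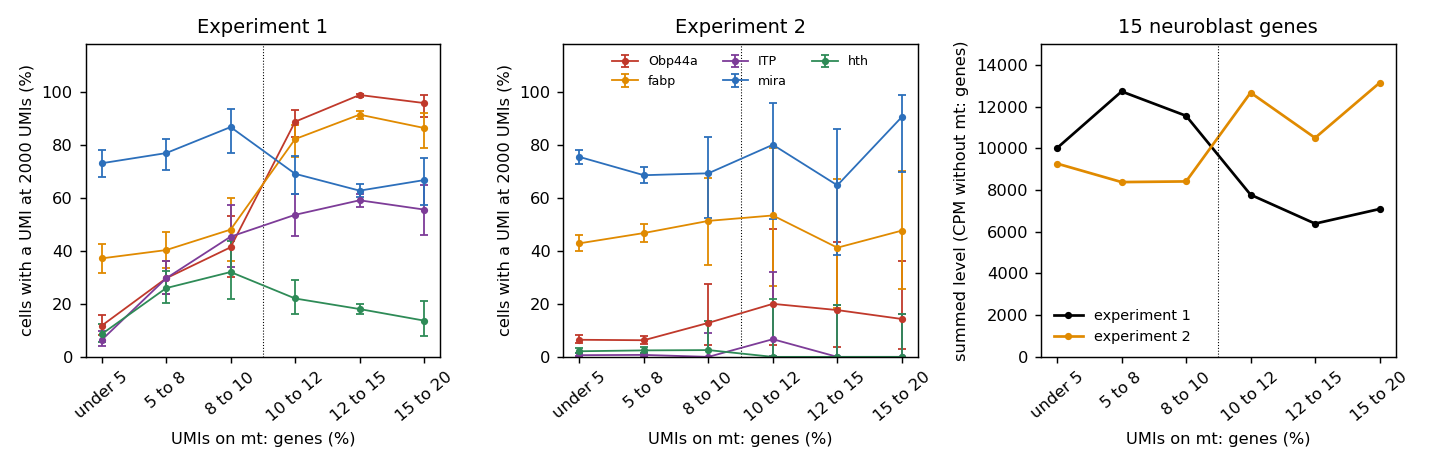
Left and middle, percent of cells with a UMI of 5 genes at 2000 UMIs by mitochondrial share for experiments 1 and 2, with exact 95% intervals; right, summed level of the 15 neuroblast genes in CPM. The dotted line is the 10% limit; above it, Obp44a is found in 88.7% to 98.8% of cells in experiment 1, and the 3 bins of experiment 2 above the limit hold 15 to 21 thinned cells each.

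The 55 high-mt cells of experiment 2 differed from those of experiment 1. Their UMIs ranged more widely, with a ratio of the 75th to the 25th percentile of 5.198, and the neuroblast list stood at 11822 CPM in them and 8810 CPM in the low-mt cells of experiment 2, with 2 of 14 measured genes at least 1.5-fold higher and 0 lower. Obp44a was at 378 CPM in high-mt cells and 98.01 CPM in low-mt cells of that experiment, lncRNA:CR43283 at 120 CPM in high-mt cells and 741 CPM in low-mt cells, and hth had no UMI in the 53 thinned high-mt cells, against 2.28% of low-mt cells, and the exact interval for 0 of 53 reaches 6.72%. Before thinning, 4 of the 55 high-mt cells (7.27%) and 10.9% of low-mt cells carried hth. Over 4449 genes measured there, 384 were at least 1.5-fold higher, or 8.63%, and 485 lower, or 10.9%. Of the 698 genes lower in high-mt cells of experiment 1, 683 were measured in experiment 2, where 12 were at least 1.5-fold lower, 102 at least 1.5-fold higher and 486 above 1. Of the 155 higher genes, 86 were measured in experiment 2, with 13 at least 1.5-fold higher and 6 lower.

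Whether the differences exceeded their spread between the libraries was tested on the 4 sums of high-mt and low-mt cells of both experiments, with the library as a block. edgeR's quasi-likelihood test called 50 of 7719 genes higher, or 0.648%, and 4 lower, or 0.0518%, at a Benjamini-Hochberg adjusted p under 0.05, with 1 residual degree of freedom. Obp99a had a log2 fold change of 3.55 (edgeR adjusted p 1.467e-14), Obp44a of 2.91 (5.365e-10), MtnA of 3.22 (5.107e-10), Npc2a of 2.95 (8.997e-11) and ITP of 2.05 (0.002924). These genes were among those named for lying on the same side of 1 in both experiments, so their like direction is no support. Of the 50 genes, 10 had no UMI in the high-mt cells of experiment 2 and 3 others had ratios below 1 there. B-H1 was among the lower genes, with -1.38 (edgeR adjusted p 0.02184), at 10.7 CPM in high-mt cells and 42.6 CPM in low-mt cells of experiment 2. Its level in those high-mt cells rests on 8 UMIs in 4 cells. The other 3 lower genes were lncRNA:CR43283, seq and His1:CG33801, and the histone gene has near-identical copies, so its value is uncertain. For lncRNA:CR43283 the shares of thinned cells with a UMI went the other way from the sums. In experiment 1 they were 46.5% of high-mt cells and 25.1% of low-mt cells, and in experiment 2 9.43% and 2.37%. The highest count of lncRNA:CR43283 in a thinned low-mt cell was 399 in experiment 1 and 339 in experiment 2. In thinned high-mt cells it was 183 and 48. The calls rest on few molecules of experiment 2: 38 of the 50 higher genes had under 10 UMIs in its 55 high-mt cells and 37 had at least 50% of them from 1 cell. For Obp99a, 92.7% of its UMIs there came from 1 cell, for Npc2a 77.8%, for Obp44a 50.7%, and ITP had 3 UMIs in all. Thinned sums called 1 gene, Obp99a, and without the block edgeR called 0, with 222 higher and 48 lower at an unadjusted p under 0.05, whereas DESeq2 with the block called 26 higher and 1 lower.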

How the data were processed

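The authors made 1 library per experiment with the 10x Genomics 3' chemistry (version 3), aligned reads to BDGP6.22, and called cells with EmptyDrops. The counts the authors deposited are whole UMIs of each gene in each called barcode, not normalized, from Cell Ranger 3.0.1 (experiment 1) and 3.1.0 (experiment 2) by the headers. The 17753 genes keep the symbols of the files. Transcript lengths, the longest of each gene, came from Ensembl 115 by FlyBase identifier, and no coordinates are printed. Cells, groups and gene lists were chosen with earlier results of these data known. No doublet caller was run. Named genes are dpn, mira, the 7 factors, the 12 largest and 12 smallest ratios in experiment 1 at 50 CPM or more, past 1.5-fold and on the same side of 1 in experiment 2, and up to 4 members of each list with the largest ratios; others were chosen after their values were seen. For a group at 0, the floor was 3 counts over the group. The library was a block because both groups of an experiment are cells of the same pooled larvae (deviations of the groups of a library from the group means correlated with r = 0.527 over 7719 genes); nothing more is known of how the libraries vary, so the p-values measure the spread between these 2 libraries. edgeR 4.0.16 used TMM and its filter on low counts. The scripts were tested on simulated data. Python 3.11.15, numpy 2.4.6, scipy 1.17.1, R 4.3.3 and DESeq2 1.42.0 were used.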

Additional observations from a re-analysis of the deposited data

How the results depend on the processing

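In experiment 1, the counts of genes at least 1.5-fold higher and lower were 290 and 1140 after each cell was thinned to 2000 UMIs. They were 470 and 1288 with low-mt cells weighted to the depths of the high-mt cells (437 low-mt cells in 4 depth bins). With mt: genes in the totals they were 88 and 1015 of 4060 genes, or 2.17% and 25.0%. At a floor of 50 CPM they were 76 and 537 of 2436 genes, or 3.12% and 22.0%, against 3.68% and 16.6% of 4209 at 20 CPM. At 2-fold the counts were 55 and 147. Weighting to the temporal stages, a gap at the limit, 4000 UMIs or more, leaving out the 5 deepest cells and leaving out the cells richest in neuron, glia and haemocyte markers kept both counts within 1.5 times. Over both libraries edgeR called 50 higher and 4 lower genes with the replicate block. With no replicate block it called 0 and 0 (222 and 48 at an unadjusted p under 0.05), and on thinned sums 1 and 0 (56 and 60 unadjusted). DESeq2 with the block called 26 and 1, 26 of these 27 being among edgeR's 54. A fit without 1 of the libraries has no residual degrees of freedom and was not run. The median of the neuron list turned to -0.17 after thinning and -0.58 with depth weighting, nrv3 to -0.22 and -0.48, and, with depth weighting, brp to -0.67 and CG14989 to -0.39. The cause was not tested.

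The difference in the share of cells with a factor, high-mt minus low-mt cells in percentage points, changed with depth and with the cells that reached it. At 4000 UMIs a cell it was 11.7 for hth, 6.93 for ey, 9.80 for slp1, 17.3 for D and -4.12 for tll, and without thinning it was 20.0 for hth, 6.56 for ey, 11.9 for slp1, 25.2 for D, -3.16 for tll and 9.68 for gcm. gcm stood at -5.17 with mt: genes in the 2000 UMIs. Without replicate 1, in experiment 2 alone, ey stood at 4.83, tll at -4.60 and gcm at -7.61. The share of genes with a dispersion above 1.2 in high-mt cells was 1.33% with the gap at the limit. Dispersion, pair counts and a second thinning draw were chosen after seeing the data; the second draw kept every difference within the interval of the first, with D at 1.87 against 5.55. Of 804 log2 ratios of named genes under the other settings of experiment 1, 737 moved by less than the SD of the gene's ratio over both experiments (or a fixed allowance where experiment 2 gave none), 63 moved by more, and 4 turned a ratio that was past 1.5-fold. This SD is widest for genes whose ratios differ most between the experiments, so the count of 737 is not read as stability. The ratio of hth, for example, stayed within its SD on moving from 0.21 to -0.90. Counting ratios short of 1.5-fold too, such as those of hth, Fas2 and mRpS30, the sign changed in 17 of the 804 values, over 10 genes.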
